A study of Mus musculus with 25 samples.

Results

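Wild-type mice given a high dose of the compound P (WT_HighP) were compared with wild-type mice given vehicle (WT_Veh), 5 mice in each group and 10 of the 25 libraries of the series. All genes with at least 0.5 FPKM (fragments scaled to gene length and library size) in at least 5 of these 10 libraries were compared, which were 14894 of the 54532 genes listed. The tissue was cortex per the series design and brain per the sample labels, each library came from 1 mouse, and P is described only as a derivative of a natural product. The sources used here do not give its identity and dose, the length of treatment or the age of the mice. The other groups were 5xFAD mice, which carry transgenes for amyloid deposition driven by neuronal Thy1 sequences, given vehicle (AD_Veh), a low dose or a high dose (AD_HighP) of P. They are used below only to set the same dose contrast beside the wild-type one.

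Cortical RNA is a mixture from neurons, glia and vessels, and bulk RNA gives a single level per gene for the mixture. Transcripts also differ in base composition: genes rich in G and C tend to be short and compact, whereas genes rich in A and T include the mitochondrial genes and many zinc finger genes. Recovery of fragments during library amplification can depend on base composition and length, so both properties were examined with each result. The 10 libraries held 16484922 to 17698222 reads assigned to genes. By Xist and Y-linked genes, mice 1 to 3 of each group were males and mice 4 and 5 females. Markers of excitatory neurons summed to 1420 to 2090 FPKM in WT_Veh and 1680 to 2280 in WT_HighP, and those of astrocytes to 1220 to 1470 and 1270 to 1490. Striatal markers ranged from 272 to 1240 FPKM in WT_Veh and from 146 to 1040 in WT_HighP, a wide range within both groups whose source was not tested.

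The direction of change ran along the GC content of transcripts. Of the 14894 genes, 326 were higher (2.19%) and 389 lower (2.61%) in WT_HighP at an adjusted p under 0.05 (limma on log2(FPKM + 0.5), Benjamini-Hochberg), and in 261 of the 715 the difference reached 1.5-fold. In 3 of the 715, no library of 1 group reached 0.5 FPKM, so the filter fixed their direction. Genes that passed mainly through 1 group, such as Mir124a-3 below, are not in this count and were not counted. The higher genes had a median GC content of 57.4% and a median length of 2630 bp, the lower genes 42.1% and 5600 bp, against 50.1% and 4030 bp for all tested genes. In the GC decile with the lowest content (up to 42.1%) the median log2 fold change was -0.34, with 4 genes called higher and 195 lower. In the decile with the highest content (58.1% and above) it was 0.42, with 146 higher and none lower. The deciles in between rose in steps from -0.23 to 0.27.

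The pair of sequences below shows the difference in composition, as the first 150 coding bases of Grrp1, called higher in the values as deposited, and of Clk1, a called gene of low GC content that fell. Grrp1, a glycine- and arginine-rich protein gene (chromosome 4, 134251110 to 134254106 in mm10), and Clk1, a kinase of splicing factors (chromosome 1, 58410189 to 58424066), both lie on the minus strand. Capitals mark G and C, of which there are 96 of 150 bases in Grrp1 and 70 in Clk1. The sequences were read from GENCODE transcripts of the same genome.
Grrp1: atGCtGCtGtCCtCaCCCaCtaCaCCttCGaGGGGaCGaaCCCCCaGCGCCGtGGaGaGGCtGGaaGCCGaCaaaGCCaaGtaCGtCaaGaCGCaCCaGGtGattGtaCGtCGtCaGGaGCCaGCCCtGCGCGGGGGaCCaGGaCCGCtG
Clk1: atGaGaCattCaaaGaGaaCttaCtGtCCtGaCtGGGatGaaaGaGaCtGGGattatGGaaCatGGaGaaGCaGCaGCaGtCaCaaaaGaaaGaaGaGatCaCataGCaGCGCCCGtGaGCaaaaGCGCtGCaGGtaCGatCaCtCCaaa

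The trend was present in the single mice. For each library the deviations of the genes from their mean were regressed on GC content. This slope was 0.076, -0.132, -0.183, -0.333 and -0.343 log2 units per 10 GC points in WT_Veh mice 1 to 5. It was 0.2, 0.242, 0.164, 0.202 and 0.106 in WT_HighP mice 1 to 5. The groups did not overlap (0.183 ± 0.051 against -0.183 ± 0.172, SD, n = 5 each, two-sided exact permutation p = 0.00794, the smallest that 5 against 5 mice allow). WT_Veh 1 was the vehicle mouse nearest to the WT_HighP mice, and the 2 female vehicle mice had the lowest slopes. The slope varied as widely among 5xFAD mice of 1 treatment, from -0.291 to 0.116 in AD_Veh and from -0.115 to 0.186 in AD_HighP (exact permutation p = 0.206). From mouse 1 to mouse 5 it fell in steps in WT_Veh, AD_Veh and AD_HighP but not in WT_HighP. The source of this order was not tested.

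**Figure D1:**
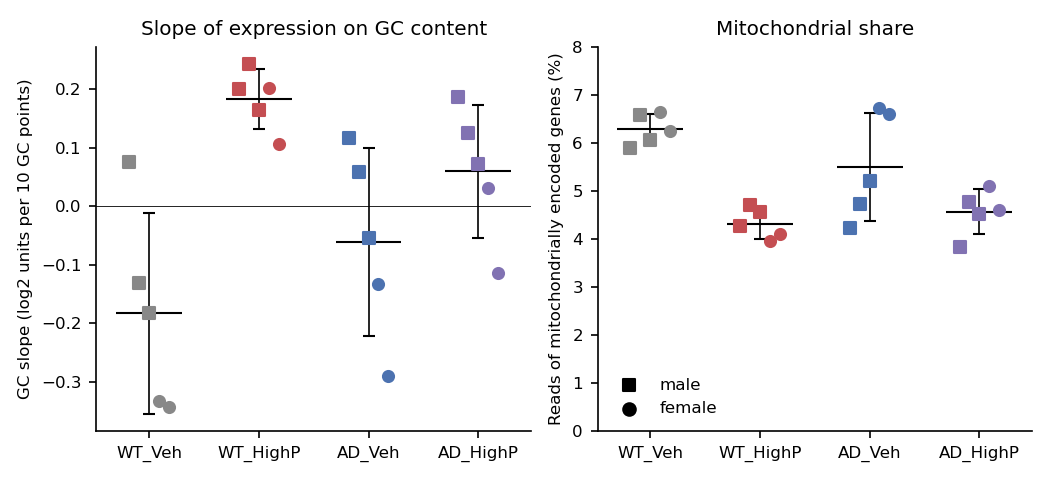
Slope of log2 expression on GC content (left, log2 units per 10 GC points) and reads of mitochondrially encoded genes (right, percent of reads assigned to genes) in WT_Veh, WT_HighP, AD_Veh and AD_HighP. Each point is a mouse (squares males, circles females), lines are means and bars SD over 5 mice; the WT_HighP slopes all lie above the WT_Veh slopes, and the WT_HighP shares all lie below the WT_Veh shares.

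Gene length carried little of the trend once GC content was taken into account. Across genes the Spearman correlation of the fold change was 0.762 with GC content and -0.186 with length, and GC content and length were themselves correlated at -0.203. Genes are not independent replicates, so these values are descriptions. Among genes of low GC content the median log2 fold change was -0.22 in short, -0.23 in middle and -0.24 in long genes. Among genes of high GC content it was 0.3, 0.26 and 0.24. The slope on length per mouse was -0.0119 ± 0.00764 log2 units per doubling in WT_HighP and 0.0119 ± 0.0305 in WT_Veh (n = 5 each, exact permutation p = 0.151). In a regression with GC content it was -0.00148 ± 0.00498 and 0.00148 ± 0.0222 (n = 5 each, exact permutation p = 0.794).

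A second fit used values from which a smooth function of GC content and of length had been subtracted in each library. It called 10 genes higher (0.0672%) and 9 lower (0.0605%), and these 19 were also called with the same sign in the values as deposited. The genes whose groups of 5 mice did not overlap went from 1518 (10.2% of those tested) to 487 (3.27%). The median log2 fold change of the 326 genes called higher went from 0.61 to 0.28, and that of the 389 called lower from -0.46 to -0.19, while 319 and 387 of them kept their sign. Such a correction also removes any response to P that runs along GC content or length. Whether the trend came from the compound or from the preparation of the libraries cannot be told apart here.

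**Figure D2:**
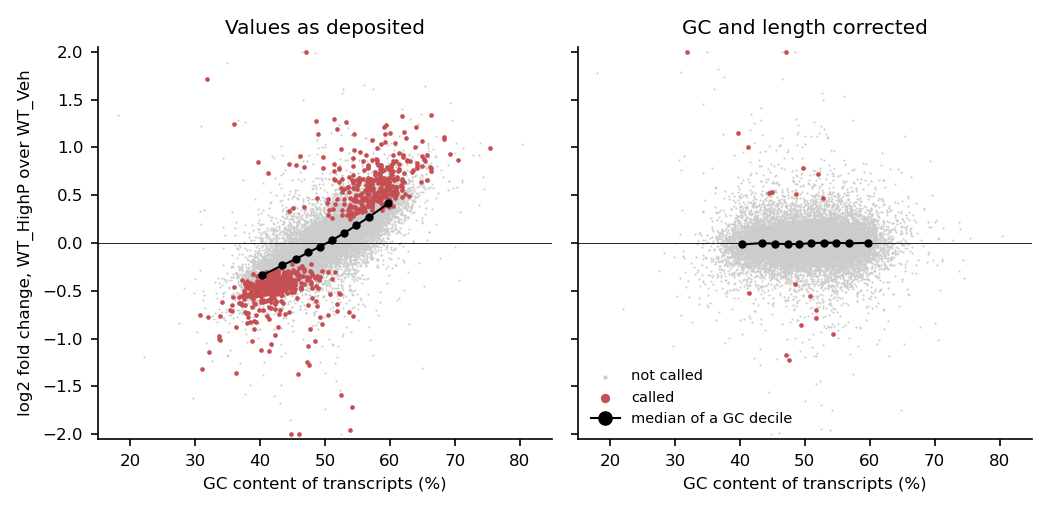
Log2 fold change of WT_HighP over WT_Veh for each tested gene against the GC content of its transcripts in percent, for values as deposited (left) and after correction for GC content and length (right). Red points are genes called at an adjusted p under 0.05, black points are the medians of GC deciles, and values beyond 2 in size are drawn at 2; the medians run from -0.34 to 0.42 on the left and lie near 0 on the right.

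Of 91 tested genes of oxidative phosphorylation, 6 (6.59%) were called in both fits, with changes in both directions, beside 0.128% of all tested genes called after correction. The lists were chosen with earlier results of these data known, so nothing particular to the pathway is read from this count. The inner mitochondrial membrane carries the electron transport complexes, which are built from many nuclear subunits and a few encoded in the mitochondrion itself. Ndufb6, an accessory subunit of complex I, stood at 15.3, 15.7, 16.3, 10.1 and 14.6 FPKM in WT_Veh mice 1 to 5. In WT_HighP mice it stood at 24.2, 25, 24.3, 27.5 and 23.4 FPKM. All 5 WT_HighP mice lay above all WT_Veh mice, and the change was of like size in both fits (log2 0.79, SE 0.15, adjusted p = 0.0245, and 0.78, SE 0.14, adjusted p = 0.0344 after correction, limma). Ndufb8, another accessory subunit of complex I, was at 7.29, 6.69, 6.61, 5.28 and 6.32 FPKM in WT_Veh and at 10, 10.9, 8.86, 10 and 9.08 in WT_HighP. Its groups did not overlap either (log2 0.57, adjusted p = 0.0245, and 0.48, adjusted p = 0.0382).

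Cox5a, a nuclear subunit of complex IV, was at 24.5, 27.6, 22, 25.4 and 25.8 FPKM in WT_Veh and at 31.8, 31.5, 32.3, 34.6 and 28.5 in WT_HighP. It has a GC content of 44.4%, and its rise was larger after correction (log2 0.34, SE 0.09, adjusted p = 0.0399, and 0.52, SE 0.10, adjusted p = 0.0382). Ndufa5, a complex I subunit of the arm that reaches into the matrix, moved the other way. It was at 41.3, 48.1, 34.6, 37.9 and 43.1 FPKM in WT_Veh and at 31.8, 30.7, 28.2, 32.4 and 26 in WT_HighP, with no overlap (log2 -0.45, adjusted p = 0.0248, and -0.43, adjusted p = 0.0382). Atp5mpl, a small subunit of the ATP synthase, had fallen as well (log2 -0.86, SE 0.17, adjusted p = 0.0382 after correction), from 19.5 to 31.2 FPKM in WT_Veh mice to 11.1 to 14.7 in WT_HighP mice. The vehicle range rests on WT_Veh 2, since the other 4 vehicle mice lay at or below 22.1 FPKM.

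As groups, the nuclear subunits showed no common direction. Of all tested genes, 2.19% were called higher and 2.61% lower in the values as deposited, and 0.0672% and 0.0605% after correction. Of 36 complex I subunits, 3 were higher and 2 lower in the values as deposited, and 2 higher and 1 lower after correction, with a median log2 fold change of 0.07 and -0.01. Of 12 complex IV subunits, 3 were higher (Cox5a, Cox5b and Cox8a) and 1 after correction. Of 16 tested subunits of complex V, Atp5mpl alone was called. Of 14 subunits of complexes II and III, Cyc1 was called higher and Uqcrh lower, neither after correction, where the log2 fold change of Cyc1 was -0.04.

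The 13 protein genes of the mitochondrial genome had a median log2 fold change of -0.61. Beside 2.61% of all tested genes called lower and 2.19% higher, 5 of the 13 were called lower and 2 higher. Those called lower were mt-Nd1, mt-Nd2, mt-Nd4 and mt-Nd6 of complex I and mt-Cytb of complex III. mt-Nd6, the one protein gene read from the light strand, was at 3520, 3880, 4140, 4080 and 4190 FPKM in WT_Veh and at 2560, 2780, 2730, 2250 and 2620 in WT_HighP. Its groups did not overlap (log2 -0.61, SE 0.17, adjusted p = 0.0469). Of the ribosomal RNAs, mt-Rnr2 fell from 2830 ± 130 to 1740 ± 138 FPKM (SD, n = 5 each, limma log2 -0.70, adjusted p = 0.0473). mt-Rnr1 was at 2950 ± 64.4 and 1830 ± 117 FPKM and missed the threshold (adjusted p = 0.0507, limma, n = 5 each).

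These genes have GC contents of 31.9% to 41.1%, and nuclear genes in that range were lower as well. The 980 tested nuclear genes between those contents had a median log2 fold change of -0.35, with 10th and 90th percentiles of -0.6 and -0.12, and 131 of them (13.4%) were called lower. After correction the mitochondrial protein genes had a median of -0.23 and none was called lower. The log2 fold changes were then -0.32 for mt-Nd1 (adjusted p = 0.251), -0.36 for mt-Nd2 and -0.23 for mt-Nd6. Mitochondrial ribosomal RNA made up 0.453% ± 0.0346 of the reads in WT_HighP and 0.724% ± 0.0359 in WT_Veh, and mitochondrial protein genes 3.86% ± 0.279 and 5.54% ± 0.339 (n = 5 each, exact permutation p = 0.00794 for both).

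mt-Atp8, which encodes a small subunit of the ATP synthase, rose against this direction. It was at 3.82, 4.44, 1.73, 2.9 and 1.78 FPKM in WT_Veh and at 13, 14.7, 11, 9.51 and 5.54 in WT_HighP, with no overlap (log2 1.72, SE 0.41, adjusted p = 0.0336, and 2.17, SE 0.42, adjusted p = 0.0382 after correction). These levels of mt-Atp8 rest on few reads, 13, 15, 6, 10 and 6 in WT_Veh and 47, 51, 37, 33 and 19 in WT_HighP. mt-Atp6, its neighbour, was called higher in the values as deposited but its groups overlapped, from 87.2 to 300 FPKM in WT_Veh and from 154 to 528 in WT_HighP. mt-Atp8 is 204 bp long and shares 43 bp with mt-Atp6, so reads of the shared transcript cannot be assigned to either by position alone. Its levels lay below those of the other 12 mitochondrial protein genes, and in AD_Veh they ranged from 2.19 to 13.9 FPKM.

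Outside this pathway, Hnrnpab and Fam174a, which have no near-identical copy, rose in both fits. With 1 library left out at a time, each lost its corrected call in 9 of 10 fits. Among genes with no such copy alone, the corrected fit called 1 gene. Hnrnpab, an RNA-binding protein of nuclear transcripts, was at 25.2, 25.3, 24.3, 18.5 and 16.1 FPKM in WT_Veh and at 39.4, 44.4, 36.6, 33.8 and 34.4 in WT_HighP. The lowest WT_HighP mouse lay above the highest vehicle mouse (log2 0.79, SE 0.16, adjusted p = 0.0245, and 0.72, SE 0.15, adjusted p = 0.0382 after correction). Fam174a, a membrane protein, was at 8.35 to 9.13 FPKM in WT_Veh and at 10.9 to 11.7 in WT_HighP (log2 0.36, adjusted p = 0.0328, and 0.54, adjusted p = 0.0457). The largest change of the 19 after correction, 2.84 on the log2 scale, was that of Mir124a-3, the gene of a neuronal microRNA hairpin (chromosome 2, 180894040 to 180894107).

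Of the vehicle mice, WT_Veh 1 alone reached the filter of 0.5 FPKM for Mir124a-3. The required 5 libraries were met only through the WT_HighP mice, so the gene had to be higher there. Its values in wild-type mice are a description. They rest on few reads. It had 1, 0, 0, 0 and 0 reads in WT_Veh mice and 5, 1, 5, 3 and 7 in WT_HighP mice. In total these were 21 against 1. Since the filter fixed the direction, no interval is drawn from these reads. For the same reason its calls in wild-type mice are not read as a result. In 5xFAD mice the reads were 0 in all 5 AD_Veh mice and 3, 4, 6, 5 and 2 in AD_HighP mice. The 20 reads of AD_HighP were 6.67-fold a floor of 3 reads for AD_Veh. This value leaves out the counting error of the 20 and the spread between mice. Mir124a-3 was the one gene called in AD_HighP against AD_Veh (log2 2.92, adjusted p = 0.00205 after correction, limma). That call was not kept with voom on the recovered reads, which gave 0 calls in this contrast before and after correction. The hairpin is 68 bp long, under the 150 bases that the search for copies required, so that search says nothing of it, and it shares 3 bp with the long noncoding RNA Gm27032, whose reads were 52 to 147 in WT_Veh and 99 to 158 in WT_HighP. Of the other hairpin genes of the family, Mir124a-1 had 0 reads in all 25 libraries and Mir124a-2 had 0 to 2 in the wild-type libraries. Libraries of long poly(A) RNA do not measure mature microRNA.

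The genes called lower in both fits included ribosomal proteins, whose reads are hard to assign. Rpl23a was at 37.8, 38.1, 39.5, 36.1 and 35.1 FPKM in WT_Veh and at 14, 16.1, 11.6, 18.4 and 16.4 in WT_HighP. Its groups lay far apart (log2 -1.27, SE 0.24, adjusted p = 0.0245, and -1.22, SE 0.23, adjusted p = 0.0344 after correction). Rpl34 fell from 40.1 ± 5.49 to 25.6 ± 3.41 FPKM and Rpl37a from 37 ± 6.23 to 22.3 ± 2.71 (n = 5 each, limma adjusted p = 0.0344 for both after correction). Rpl22l1, a paralog of a ribosomal protein with roles in RNA binding, fell from 11.6 to 15 FPKM in WT_Veh to 6.66 to 8.07 in WT_HighP (log2 -0.80, and -0.52, adjusted p = 0.0344). Of 79 ribosomal protein genes tested, 3 were higher and 6 lower in the values as deposited, and none higher and 3 lower after correction, with medians of -0.02 and -0.09. The shares of all tested genes were 2.19% higher and 2.61% lower, and 0.0672% and 0.0605% after correction.

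Near-identical copies were looked for among the transcripts of all genes, as matches of at least 95% identity over at least 150 bases. Such a copy was found for 2311 of the tested genes (15.5%), for 152 of the 715 called (21.3%) and for 10 of the 19 called after correction. Rpl23a had 25 copies, Rpl34 8, Rpl37a 5 and Rpl22l1 3. The remaining 6 were Eno1b, a copy of the glycolytic enzyme gene Eno1, Zxdb, a zinc finger gene with the copy Zxda, and the pseudogenes Gm13680 (of Rps4x), Gm9118 (of Npm1), Gm9794 (of Rpl23) and Gm13340 (of mt-Co1). Of these, Eno1b, Zxdb and Gm13680 were lower and Gm9118, Gm9794 and Gm13340 higher. The sources used here do not say whether a read was counted for a gene or for its copy, so these levels are uncertain.

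Rps27, a ribosomal protein gene called lower in the values as deposited, shows how close such copies are. It was at 38.3, 52.8, 35.2, 38.9 and 37.6 FPKM in WT_Veh and at 17.5, 14.8, 9.79, 12.6 and 11.6 in WT_HighP. Its copy Rps27rt was at 18.8, 23.2, 16.1, 23.4 and 25.8 FPKM in WT_Veh and at 8.47, 4.23, 3.07, 4.09 and 3.66 in WT_HighP. In both, every WT_HighP mouse lay below every vehicle mouse, and both were called in the values as deposited (log2 -1.59, SE 0.38, adjusted p = 0.0347, and -2.14, SE 0.57, adjusted p = 0.0427). Neither was called after correction (adjusted p = 0.0977 and 0.166). Rps27 lies on chromosome 3 (90212522 to 90213651) and Rps27rt on chromosome 9 (114982366 to 114982739), and the coding sequences of the pair, start to stop codon, differ at 0 positions. The first 150 are printed once for both, in lower case because no base differs.
Rps27 and Rps27rt: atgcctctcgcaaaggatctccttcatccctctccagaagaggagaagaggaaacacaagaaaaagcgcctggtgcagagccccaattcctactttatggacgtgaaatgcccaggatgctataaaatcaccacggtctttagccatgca

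These ribosomal genes also varied widely among mice of 1 group. In AD_Veh, Rpl23a ranged from 28.4 to 89 FPKM and Rps27 from 21.2 to 78.1. Mice 1 and 2 of that group had the lowest values of both genes, with Rpl23a at 28.4 and 36.8 FPKM and Rps27 at 21.2 and 27.8. In AD_HighP, Rpl23a lay between 27.4 and 40.5 FPKM. The difference between doses in 5xFAD mice was not called for either gene (log2 -0.57, adjusted p = 0.703, and -0.70, adjusted p = 0.72 after correction).

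**Figure D3:**
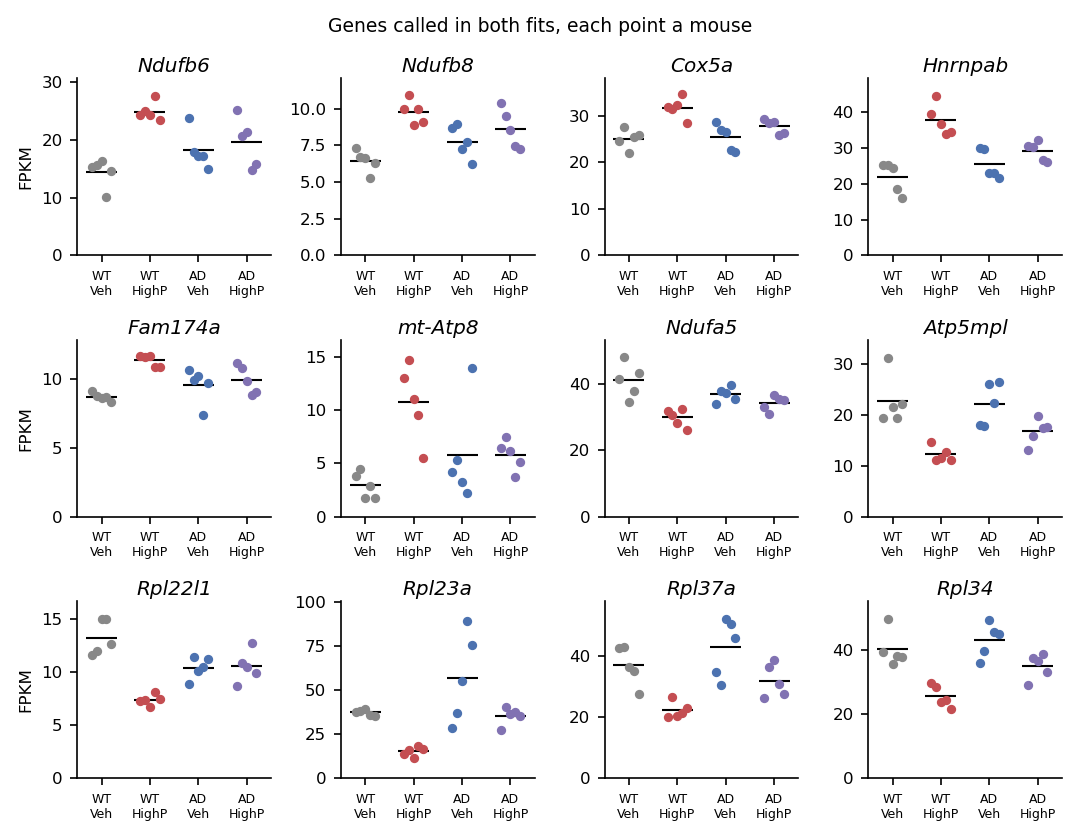
FPKM (linear axes from 0) of 12 genes called in both fits, in WT_Veh, WT_HighP, AD_Veh and AD_HighP mice. Each point is a mouse and each line a mean of 5; in all 12 panels the WT_HighP points do not overlap the WT_Veh points, while the AD_HighP points overlap those of AD_Veh.

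Among the genes with the largest rises in the values as deposited, most had a high GC content. Scand1, a zinc finger cofactor with a GC content of 68.4%, was at 62.9, 46.6, 41.2, 35.2 and 24.3 FPKM in WT_Veh and at 86.6, 107, 93.5, 74.7 and 76 in WT_HighP. The groups did not overlap (log2 1.10, SE 0.30, adjusted p = 0.0448), and after correction 0.37 was left (SE 0.14, adjusted p = 0.322). Grrp1 went from 0.139 to 2.02 FPKM in WT_Veh to 2.19 to 3.42 in WT_HighP (log2 1.21, adjusted p = 0.0434, and 0.62, adjusted p = 0.316 after correction). Tmem160, a mitochondrial membrane protein, Mrpl54 of the mitochondrial ribosome and Lzts2, a leucine zipper protein, rose by 1.06, 1.05 and 1.10 in the values as deposited. Their values after correction were 0.44, 0.58 and 0.59, with adjusted p from 0.166 to 0.229 (limma).

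Fgfbp3, which binds fibroblast growth factors, differed from these in composition. Its GC content is 52.5%, and its change was 0.98 before and 0.88 after correction (adjusted p = 0.0348 and 0.117, limma). It was at 3.59, 2.76, 3.73, 1.6 and 1.44 FPKM in WT_Veh and at 4.21, 6.45, 6.62, 5.14 and 4.77 in WT_HighP. Dbp, a transcription factor with a strong daily rhythm, was at 14.6 to 23.1 FPKM in WT_Veh and at 30.9 to 38.9 in WT_HighP. It rose in the values as deposited (log2 0.87, adjusted p = 0.0245) and came close to the threshold after correction (0.58, adjusted p = 0.053). In 5xFAD mice it was at 18.3 to 30.8 FPKM with vehicle and at 26.3 to 34.8 with high P (log2 0.37 after correction, adjusted p = 0.703). The remaining 20 tested clock genes were not called in either fit, and the sources used here do not give the time of day of tissue collection. Apoe, the main lipid carrier of astrocytes, lost its call after correction (log2 0.73, SE 0.16, adjusted p = 0.0753), though its groups still did not overlap.

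Zinc finger genes with a KRAB repressor domain, which bind DNA and silence transposons, formed the longest set of falls. Of 81 tested, 17 were lower and none higher, with a median log2 fold change of -0.38 beside 0 for all tested genes, 2.61% of which were called lower. Zfp938 was at 6.26, 8.22, 7.56, 9.87 and 10.2 FPKM in WT_Veh and at 4.25, 4.8, 5.48, 5.99 and 5.54 in WT_HighP. Its groups did not overlap (log2 -0.63, SE 0.13, adjusted p = 0.0245). Zfp932 fell from 6.19 ± 1.01 to 3.4 ± 0.294 FPKM and Zfp944 from a mean of 4.76 to 2.8 (log2 -0.77 and -0.67). The 81 genes have a median GC content of 42.7%, and the GC decile that holds that content had a median of -0.23. After correction their median was -0.13 and none was called.

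Splicing kinases and proteins of nuclear speckles, which regulate the processing of transcripts, were lower in 7 of 28 tested genes and higher in none, beside 2.61% of all tested genes called lower. The 7 were Clk1, Clk4, Srsf11, Pnisr, Rbm39, Luc7l2 and Luc7l3. Luc7l3 was at 21.9, 22.9, 23.8, 24.2 and 23.8 FPKM in WT_Veh and at 13.3, 14.8, 15.6, 15.8 and 17.9 in WT_HighP. No WT_HighP mouse reached the vehicle range (log2 -0.58, SE 0.12, adjusted p = 0.0245), and after correction the change was -0.29 (adjusted p = 0.219). Clk1 fell from 10.1 to 16.9 FPKM in WT_Veh to 6.29 to 8.15 in WT_HighP. In AD_Veh it was at 6.96, 7.26, 8.15, 8.06 and 12.2 FPKM, so 4 of these 5 vehicle mice lay at the level of the WT_HighP mice. The list's median was -0.21 before and -0.10 after correction, and none of its genes was then called.

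Long noncoding RNAs that stay in the nucleus gave 3 falls among 14 tested genes, Snhg11, Snhg14 and Ftx, beside 2.61% of all tested genes called lower. The list's median was -0.37, and -0.18 with no call after correction. Snhg11, a neuronal host of small nucleolar RNAs, was at 97, 77.7, 82.7, 101 and 74.3 FPKM in WT_Veh and at 40.2, 48, 58.1, 62.8 and 66.4 in WT_HighP. Its GC content of 48.8% lies near that of all genes, and its change was -0.66 before and -0.61 after correction (adjusted p = 0.0388 and 0.16, limma). In 5xFAD mice its log2 fold change was 0.27 after correction (adjusted p = 0.744), and the difference between the genotypes was not called (adjusted p = 0.901).

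Neuronal receptor and channel genes gave 0 to 2 calls a list, beside 2.19% of all tested genes called higher and 2.61% called lower. Counts this small are not read as a direction of a list. Of 22 glutamate receptor genes, Gria2 and Gria4, subunits of AMPA receptors, were lower (log2 -0.44 and -0.34), with -0.13 and -0.11 and no call after correction. None of 14 GABA receptor genes was called, and their median moved from -0.27 to -0.01 with the correction. None of 25 immediate early genes, 25 synaptic vesicle genes or 26 sodium and potassium channel genes was called in either fit, and of 22 postsynaptic genes Nlgn2 alone was (log2 0.44, and 0.03 after correction).

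Immune and stress genes gave 0 or 1 call a list, beside 2.19% of all tested genes called higher and 2.61% called lower. No gene was called among 20 microglial, 22 plaque-associated, 14 complement, 20 interferon-stimulated or 15 antigen presentation genes in either fit. Their medians lay between -0.11 and 0.32 before and between -0.07 and 0.12 after correction. Ftl1, the ferritin light chain, was the one call of 28 antioxidant genes (log2 0.51, and 0.17 after correction). Stub1, a ubiquitin ligase, was the one of 20 chaperone genes and Dnajb9 the one of 25 genes of the unfolded protein response. Of 27 sterol synthesis genes, Mvk was higher, and of 42 lysosome and autophagy genes none was called.

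**Figure D4:**
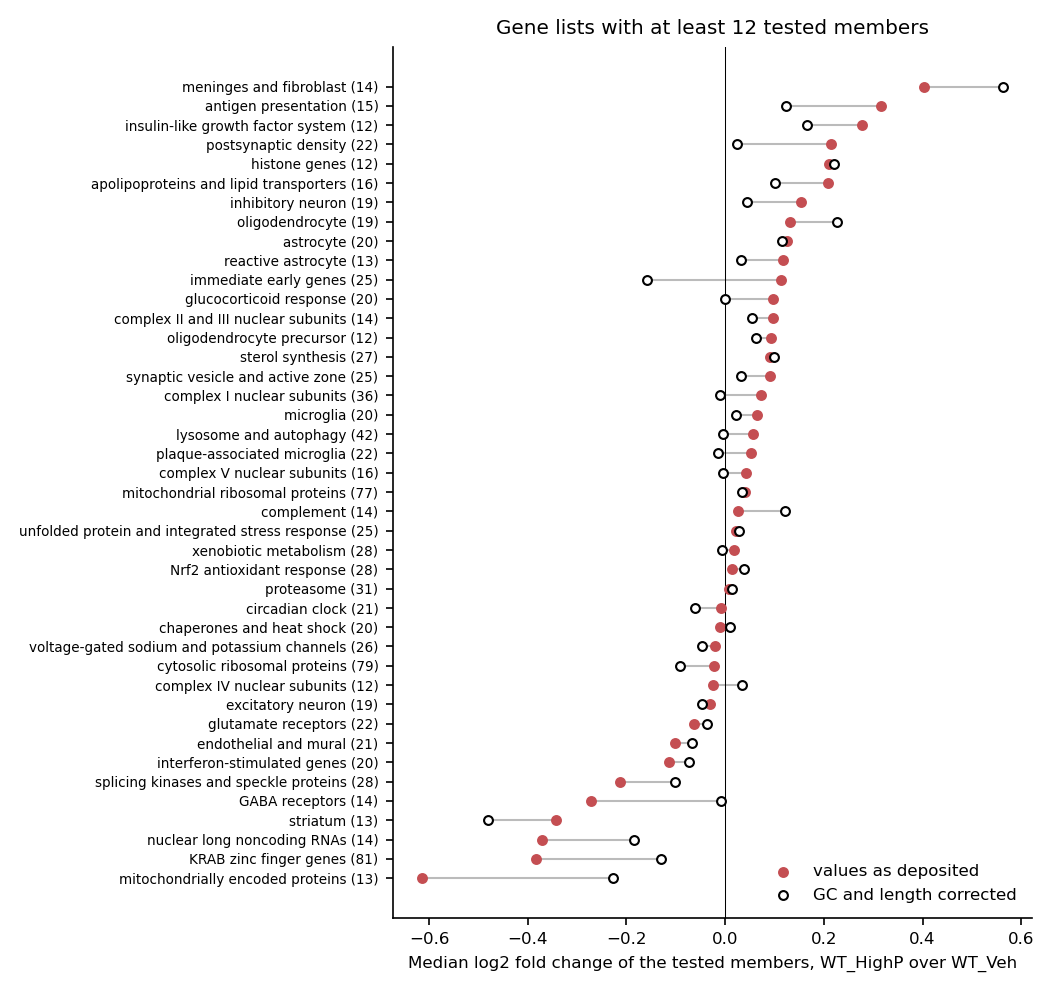
Median log2 fold change of WT_HighP over WT_Veh for the gene lists with at least 12 tested members (numbers in brackets), for values as deposited (red) and after correction for GC content and length (open). The lists of mitochondrially encoded, KRAB zinc finger and nuclear noncoding genes have the lowest medians on the red scale and move toward 0 with the correction. The meningeal list moves from 0.4 to 0.56 and the striatal list from -0.34 to -0.48.

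Marker sums of meninges and choroid plexus overlapped between the groups. In bulk RNA, fewer cells of a type and less RNA per cell cannot be told apart. The 16 meningeal and fibroblast markers summed to 113 to 322 FPKM in WT_Veh and to 237 to 416 in WT_HighP. Of the 14 tested, Igfbp2 and Ptgds were called higher in the values as deposited, beside 2.19% of all tested genes. None was called after correction, where the list's median was 0.56. Ptgds, the prostaglandin D synthase of meninges and oligodendrocytes, was at 158, 120, 274, 97.1 and 102 FPKM in WT_Veh and at 194, 327, 238, 236 and 355 in WT_HighP. WT_Veh 3 lay within the WT_HighP range.

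The 16 choroid plexus markers summed to 45.9 to 104 FPKM in WT_Veh and to 42.3 to 975 in WT_HighP. The high end came from Ttr, the transthyretin gene, at 671 and 820 FPKM in WT_HighP 1 and 2, 58.2 in WT_Veh 1 and at most 9.75 in the other 7 wild-type mice. Precursor cells of oligodendrocytes had marker sums of 131 to 181 and 178 to 255 FPKM, and those of inhibitory neurons 615 to 797 and 704 to 836. These sums, like those of all 14 cell type lists, overlapped between the groups. Of 12 precursor genes, Olig2 and C1ql1 were called higher, beside 2.19% of all tested genes. They have GC contents of 58.5% and 65.8%, and their log2 fold changes of 0.66 and 0.92 became 0.31 and 0.26 after correction. The precursor marker Pdgfra was not called (log2 0.05), and the list's median was 0.09. Of 21 endothelial and mural genes, Rgs5 and Slco1a4 were lower, beside 2.61% of all tested genes, and neither was called after correction. The list's median was -0.10 before and -0.07 after correction. In the values as deposited 8 of the 21 lay above 0, among them the endothelial marker Cldn5 (log2 0.60, not called). Microglial markers summed to 206 to 298 FPKM in WT_Veh and 225 to 324 in WT_HighP. The leukocyte markers Ly6g and Ms4a1 were listed at 0 in all 10 libraries. Whether the tissue pieces account for any call was not tested.

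The number of calls depended on single mice. Without WT_Veh 1, the values as deposited gave 2861 calls. Without WT_Veh 2 there were 98, without WT_Veh 3 there were 153, without WT_Veh 4 there was 1 and without WT_Veh 5 there were 0. Without WT_HighP 1, 2 or 4 there was 1 call each, without WT_HighP 3 there were 60 and without WT_HighP 5 there were 581. In the corrected values the 19 calls became 35 without WT_Veh 1 and between 1 and 6 without any other of these libraries. With no library left out, 4459 genes had an unadjusted p under 0.05 in the values as deposited and 1527 in the corrected ones, and without WT_Veh 5 this number was 3141 in the values as deposited.

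**Figure D5:**
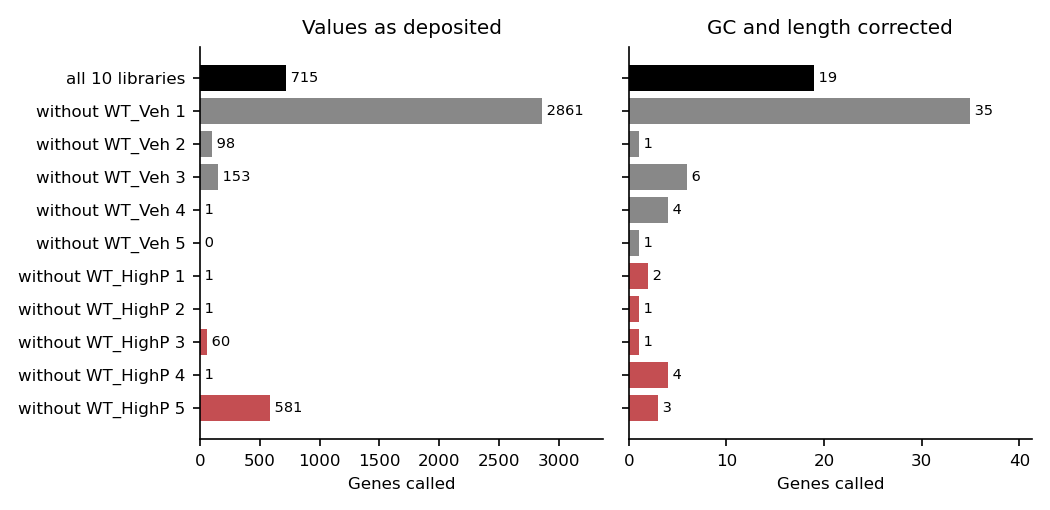
Genes called in WT_HighP against WT_Veh with all 10 libraries (black) and without each library in turn (grey WT_Veh, red WT_HighP), for values as deposited (left) and corrected values (right), on linear axes. Leaving out WT_Veh 1 raised the number to 2861 and 35, and leaving out 7 of the other libraries brought the left number to at most 98.

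The same dose in 5xFAD mice, a contrast that shares no library with this one, called only Mir124a-3 in both fits. Of the 715 genes, 606 had the same sign there, with median log2 fold changes of 0.16 for those called higher and -0.11 for those called lower. In that contrast fold changes also followed GC content (Spearman 0.417 across genes). Over all tested genes, the fold changes of both contrasts correlated at 0.41, and at 0.28 after correction (Pearson). The share of all tested genes with the same sign was not counted, so agreement of the called genes is not set against it. After correction, 14 of the 19 genes had the same sign in 5xFAD mice, with medians of 0.14 and -0.29. No gene had a difference between genotypes in its response to high P at an adjusted p under 0.05 (limma; 1050 genes in the values as deposited and 712 after correction at an unadjusted p under 0.05, smallest adjusted p = 0.587 and 0.681). A response confined to wild-type mice was therefore not shown for any gene.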

How the data were processed

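Libraries were made from poly(A) RNA with random priming, size selection and PCR, keeping strand, per the labels' protocols. The submitters' processing notes name HISAT2 and mm10. The version of HISAT2, the counting tool and the annotation are not given there. The authors deposited FPKM values and a gene length for each gene. Multiplying FPKM by length gave whole reads for 100% of values (tolerance 0.01 of a read), so depth was recovered. Without unique molecular identifiers, comparisons of read numbers cover counting error only.

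Values were transformed as log2(FPKM + 0.5), so fold changes of low genes are understated. The model had 1 mean per group over the 25 libraries and was fitted in R 4.3.3 with limma 3.58.1 and variances following intensity (20 residual degrees of freedom); files were read with data.table, version 1.17.8. Tests were two-sided, with Benjamini-Hochberg adjustment over the 14894 genes. For the corrected fit, splines of 5 degrees of freedom in GC content and in log2 length were fitted in each library to deviations from the gene means and subtracted, for the 14877 genes with a GC value. GC content came from GENCODE transcripts of the same genome, in which 54495 identifiers were found, 98.3% with the same coordinates. Copies were found with minimap2 2.31-r1302. Both fits were run on simulated reads with a linear GC slope in each library and a spread drawn independently for each gene. Such data hold no effect of a mouse shared by many genes. They therefore say nothing of how far the calls depend on single mice. Single values were compared by exact permutation over mice (Python 3.11.15, numpy 2.4.6, pandas 2.3.3).

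The members, the 47 gene lists and the tests were chosen with earlier results of these data known, so a list's direction is no independent evidence. Named genes were, in each fit, the 10 largest rises and 10 largest falls among called genes of at least 1 FPKM and 500 bp with groups that do not overlap, leaving out unnamed models, pseudogenes and mitochondrial genes. Where the corrected fit had fewer, genes of the smallest p filled the places and are given as not called. Called list members, mitochondrial genes and the 6 largest in each direction among genes called in both fits were added. The rule for sequences named Grrp1 and Rps27. Clk1 and Rps27rt were added after their values were seen, as were the other Mir124 genes and the search for copies. Alternatives were other pseudocounts, filters, scalings, weights, sex, library sets, splines and a replicate term. Mice with the same number did not deviate together (correlations from -0.263 to 0.037), so no pairing was used. The closest libraries of a group still differed beyond counting noise (chi-square of 8.47 per gene).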

Additional observations from a re-analysis of the deposited data

Results flagged for a closer look

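Of 96 sets of 5 mice (40 genes and 8 library measures, each in WT_Veh and WT_HighP), 8 held a mouse far from the others of its group, each time a vehicle mouse. Chance marks about 1 in 20 such sets. WT_Veh 2 stood above the other vehicle mice in Rps27 (52.8 FPKM, the next 38.9), Rpl39 (35.8, the next 20.9), Atp5mpl (31.2, the next 22.1) and Rpl34 (49.6, the next 39.4). WT_Veh 1 stood above them in Tmem160 (20.7 FPKM, the next 14.7) and in Mir124a-3 (0.883 FPKM, a single read, with the others at 0). WT_Veh 4 stood below them in Ndufb6 (10.1 FPKM, the next 14.6) and above them in Gm13340 (5.28 FPKM, the next 4.14).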

How the results depend on the processing

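The number of genes called in the values as deposited was 715. It was 1 with no filter, 1681 with the 10 wild-type libraries alone, 3548 with array weights, 0 in males alone, 2435 in females alone, 1 without the libraries of high Ttr and 13 with a GC correction alone. It was 339 among genes with no near-identical copy, an alternative chosen after seeing the data. After the correction for GC content and length the number was 19. It was 32 with a filter of 5 FPKM, 6 with no filter, 6 among protein-coding genes, 58 with the wild-type libraries alone, 109 with array weights, 5 in males and 263 in females alone. It was 1 without the libraries of high Ttr, 11 with voom on recovered reads, 1 among genes with no near-identical copy and 0 with the GC slope as a covariate. Quantile normalization gave 9 higher and 14 lower in place of 10 and 9. Leaving out 1 library gave 0 to 2861 calls in the values as deposited and 1 to 35 after correction. Fits of 1 sex or without libraries held fewer mice, and the number rose in females alone and without WT_Veh 1. Why the numbers moved was not tested. With a filter of 1 FPKM, Mir124a-3 was not tested, and high P in 5xFAD mice gave 0 calls in both fits. Voom on recovered reads also gave 0 calls for high P in 5xFAD mice, before and after correction.

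With the replicate number as a block there were 285 calls in the values as deposited and 5 after correction; the numbers did not pair the mice. By sign flips over replicate numbers the GC slope difference was 0.366 (exact p = 0.0625, the smallest possible) and that of the mitochondrial share -1.96 percentage points (exact p = 0.0625). The length slope difference was -0.0798 among protein-coding genes (exact permutation p = 0.0159). Leaving out 1 library gave -0.033 to -0.015, lowest without WT_Veh 1 (exact permutation p = 0.0397). Of 96 named genes over the alternatives, 3 of 2818 values as deposited changed sign: mt-Nd1 and mt-Cytb were at 0 under quantile normalization, which ties the highest genes, and Cyc1 was at -0.0294 with a GC correction alone. A call was lost with its direction kept in 1094 of these values and in 287 of 3202 corrected values, and no called gene changed sign in the corrected ones. Among named genes not called, the sign changed in 10 of the values as deposited and in 26 of the corrected values. Depth limits genes of few reads, such as Mir124a-3 and mt-Atp8, and 5 mice a group limit the others. A log2 fold change had a median SE of 0.142 before and 0.123 after correction.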
